A study of Mus musculus with 20 samples.

Results

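The integrated stress response genes described here are 10 listed genes of the pathway controlled by the transcription factor ATF4: Atf4, Atf5, Ddit3, Trib3, Asns, Chac1, Sesn2, Psat1, Fgf21 and Ddit4. They were chosen by name, and all 10 were found among the 25700 mouse gene identifiers counted in every library. Of these genes 9 passed the filter on low counts and were tested with 15430 genes in all, and Fgf21 did not pass. Gene expression was measured by poly(A) RNA sequencing in 4 groups of 5 mouse libraries each, 20 in all. The groups were oxalate libraries with alkali therapy (titled Oxalate_late), oxalate libraries without it (Oxalate, treatment Untreated), control libraries with alkali therapy (Control_late) and untreated control libraries (Control). The series is described as bicarbonate given to mice with crystal nephropathy, a kidney disease caused by crystals in the tubules. The labels give neither tissue, strain, sex, age, oxalate dose nor sampling time, they do not explain the word "late", and nothing in them says that each library is a separate animal, so p-values speak of the spread among libraries, some of which may be technical.

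In the integrated stress response, kinases that sense unfolded protein, amino acid shortage, viral RNA or lack of heme phosphorylate the translation initiation factor eIF2. General translation then slows, while the mRNAs of ATF4 and ATF5 are translated more, so that the activity of ATF4 is set largely after transcription and its mRNA is only part of the measure. ATF4 switches on genes of amino acid synthesis and uptake and of redox defence, and under lasting stress Ddit3, which encodes the transcription factor CHOP. In kidney tubule cells this pathway is known from toxic, ischemic and proteinuric injury.

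The C/EBP-ATF response element is the DNA motif that ATF4 binds as a dimer with C/EBP proteins. It was searched as TGATGNAA on both strands in RefSeq promoters of GRCm38.p6, from 250 bases before to 50 bases after each annotated start. Of 32851 promoters 1304 (3.97%) held it, and of the 12 promoters of the 10 genes 4 did, each belonging to a different gene. The matched stretches are shown because they are the places in these promoters where the letters of the motif occur, given 5′ to 3′ on the strand of the gene with the motif in capitals.
Trib3: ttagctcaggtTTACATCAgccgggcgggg
Asns: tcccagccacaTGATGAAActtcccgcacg
Chac1: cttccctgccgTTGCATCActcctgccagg
Fgf21: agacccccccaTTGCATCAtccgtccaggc
The Asns match reads along the gene and lies 23 to 16 bases before the start (stretch at chr6:7693214-7693243, minus strand). The other matches read on the opposite strand. In Trib3 the match lies at bases 15 to 22 after the RefSeq start (chr2:152344028-152344057, minus strand). In Chac1 it lies 193 to 186 bases before that start (chr2:119351038-119351067, plus strand). In Fgf21 it lies 139 to 132 bases before it (chr7:45615611-45615640, minus strand). The GENCODE M21 coordinates given for the genes below place the outermost start of Trib3 (152344032) after its match and that of Asns (7693254) before its match. For these genes the side of the start thus depends on the annotation. The ER stress element, searched as CCAAT and CCACG with 9 bases between them on both strands, was in 39 of all promoters (0.119%) and in 0 of these 12. A match describes letters only, and a missing match says nothing about windows not searched.

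Levels differed widely between the genes. Levels are CPM, counts divided by the size of the library after TMM scaling (edgeR's trimmed mean of log ratios), and where genes are compared they are also divided by the exon length in kilobases. In untreated oxalate libraries Atf4 was the most abundant at 58.2 ± 10.9 CPM per kb (SD, n = 5), followed by Ddit4 (19.6 ± 6.56), Ddit3 (17.9 ± 7.01), Sesn2 (13.9 ± 2.93), Psat1 (11.4 ± 3.09) and Atf5 (9.23 ± 1.97 CPM per kb). Asns had 2.57 ± 0.695 CPM per kb, Trib3 0.678 ± 0.194 and Chac1 0.547 ± 0.155 in the same libraries. In untreated control libraries the order was Atf4 (48.3 ± 6.63 CPM per kb), Sesn2 (17.8 ± 4.33), Ddit4 (12.7 ± 3.43), Psat1 (9.22 ± 1.43), Ddit3 (8.91 ± 2.61), Atf5 (6.25 ± 1.55), Asns (1.97 ± 0.783), Chac1 (0.491 ± 0.24) and Trib3 (0.404 ± 0.0964). Atf4 stood clear of the rest in both groups, whereas Ddit4, Ddit3, Sesn2 and Psat1 lay within 1 SD of their neighbours in untreated oxalate libraries. Trib3 and Chac1 rested on 9 to 73 counts per library, so their values carry more counting error than those of the other tested genes.

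**Figure D1:**
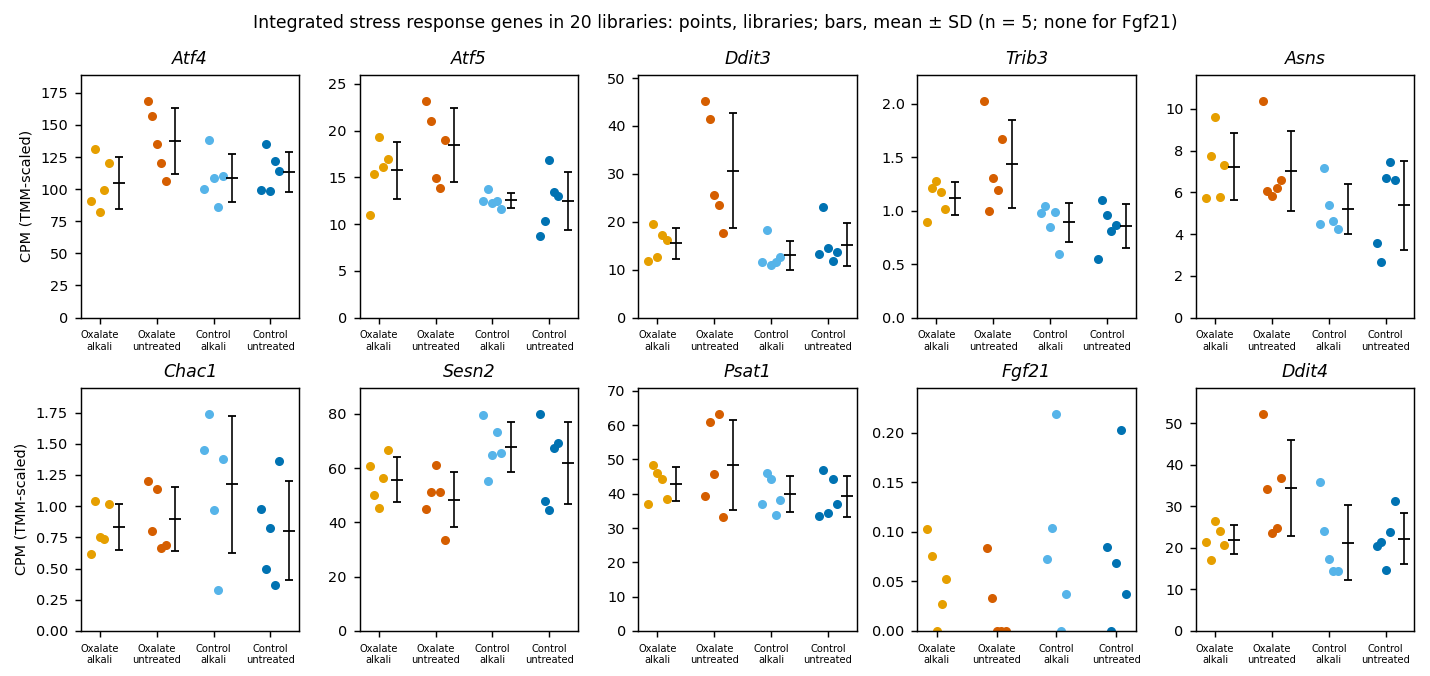
Expression of the 10 genes in every library, in CPM after TMM scaling on the vertical axis of each panel, by group on the horizontal axis. Points are libraries and black bars the mean ± SD of 5 (no bar for Fgf21, at 0 to 7 counts per library). Ddit3 reached 45.3 CPM in untreated oxalate libraries and at most 23.1 CPM in any other group, and for every gene the groups overlap.

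Untreated oxalate libraries were set against untreated controls to ask what crystal nephropathy changed in this pathway without alkali. Ddit3, Trib3, Atf5 and Ddit4 were higher in untreated oxalate libraries, by 1.48-fold (Atf5) to 2.01-fold (Ddit3). Atf4 itself and the amino acid genes Asns and Psat1 did not pass the test, nor did Chac1, and Sesn2 had a negative estimate that did not pass. The 4 calls among 9 tested genes (44.4%) stand beside 26.4% of all 15430 genes called higher in this comparison, 23.1% called lower and 49.4% called in either direction, and the difference between these shares was not tested. The groups overlapped for each of the 9 genes, while 18.5% of all genes had every untreated oxalate library above every untreated control and 15.4% every one below. The median log2 fold change was 0.38 over the 9 genes and 0.0 over all genes. Calls are those of edgeR's quasi-likelihood test at a Benjamini-Hochberg adjusted p under 0.05 over all genes tested, and changes are log2 fold changes ± SE with 5 libraries per group.

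Ddit3 (Ensembl ENSMUSG00000025408, GRCm38 chromosome 10, 127290774 to 127296288, plus strand) encodes CHOP, which ATF4 induces and which drives apoptosis genes under prolonged stress. It had 45.3, 41.4, 25.5, 23.6 and 17.6 CPM in untreated oxalate libraries 12, 3, 32, 39 and 40, against 13.2, 23.1, 14.5, 11.8 and 13.6 CPM in untreated control libraries 13, 19, 26, 35 and 9. Libraries 12 and 3 stood well above the other oxalate libraries, and library 40 lay below the highest control library, so the groups overlapped. The change was 1.01 ± 0.24 (edgeR quasi-likelihood test, adjusted p = 0.00176). It was called under all alternatives tried, at 0.74 to 1.29. Exons of Ddit3 overlap those of Mars on the opposite strand over 68 bases, and the strand setting of the counting is not given in the sources used here. Mars was lower in this comparison, at -0.27 (edgeR quasi-likelihood, adjusted p = 0.0098), and at 0.03 under total-count scaling.

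Trib3 (chromosome 2, 152337422 to 152344032, minus strand) encodes a pseudokinase that CHOP and ATF4 induce and that restrains ATF4 in turn. It had 2.03, 0.999, 1.31, 1.19 and 1.67 CPM in untreated oxalate libraries 12, 3, 32, 39 and 40, against 0.55, 1.1, 0.958, 0.811 and 0.867 CPM in untreated control libraries 13, 19, 26, 35 and 9. All but 1 oxalate library lay above every control library. The change was 0.74 ± 0.23 (edgeR quasi-likelihood, adjusted p = 0.0115). It held under every alternative, at 0.59 to 1.05.

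Atf5 (chromosome 7, 44812256 to 44816658, minus strand) encodes a relative of ATF4 that is likewise translated under eIF2 phosphorylation and is known in worms and mammals for the mitochondrial stress response. It had 23.2, 21, 14.9, 13.9 and 19 CPM in untreated oxalate libraries 12, 3, 32, 39 and 40, against 8.76, 10.3, 16.8, 13.4 and 13 CPM in untreated control libraries 13, 19, 26, 35 and 9. Oxalate libraries 12, 3 and 40 were above all controls, and the others fell within the control range. The change was 0.56 ± 0.17 (edgeR quasi-likelihood, adjusted p = 0.00939), and the call was lost without 4 libraries high in early response genes such as Fos (0.29, adjusted p = 0.252). Exons of Atf5 share 82 bases with Nup62 and Il4i1 on the opposite strand, so a part of its counts cannot be assigned with certainty.

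Ddit4 (chromosome 10, 59949669 to 59951834, minus strand) encodes REDD1, an inhibitor of the growth kinase complex mTORC1 that ATF4, hypoxia and glucocorticoids induce. It had 52.3, 34.2, 23.6, 24.9 and 36.8 CPM in untreated oxalate libraries 12, 3, 32, 39 and 40, against 20.4, 21.3, 14.6, 23.8 and 31.2 CPM in untreated control libraries 13, 19, 26, 35 and 9. Library 12 was far above the rest of its group, and libraries 32 and 39 lay among the controls. The change was 0.63 ± 0.25 (edgeR quasi-likelihood, adjusted p = 0.043). This call is the least secure of the 4. It was lost when oxalate library 12 (0.43, adjusted p = 0.163), 3 (adjusted p = 0.0636) or 40 (adjusted p = 0.104), or control library 13 (adjusted p = 0.0832), 19 (adjusted p = 0.0743), 26 (adjusted p = 0.108) or 35 (adjusted p = 0.0605), was left out, and without the filter on low counts (adjusted p = 0.0825).

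The regulator Atf4 (chromosome 15, 80255184 to 80257541, plus strand) had 169, 157, 135, 120 and 106 CPM in untreated oxalate libraries 12, 3, 32, 39 and 40. It had 99.3, 135, 98.3, 122 and 114 CPM in untreated control libraries 13, 19, 26, 35 and 9. Libraries 12 and 3 were again the highest, and the other oxalate libraries lay within or at the edge of the control range. The difference was 0.27 ± 0.15 with a 95% interval of -0.04 to 0.58 (edgeR quasi-likelihood, adjusted p = 0.139), and that interval holds both no change and an increase. Translation of ATF4, through which the pathway acts, was not measured.

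The metabolic targets gave smaller differences. Asns (asparagine synthetase, chromosome 6, 7675169 to 7693254, minus strand) averaged 7.02 ± 1.9 CPM in untreated oxalate libraries and 5.38 ± 2.14 CPM in untreated control libraries (SD, n = 5 each). Its difference was 0.38 ± 0.25 (edgeR quasi-likelihood, adjusted p = 0.213). Psat1 (phosphoserine aminotransferase of serine synthesis, chromosome 19, 15904678 to 15947337, minus strand) averaged 48.5 ± 13.1 CPM in untreated oxalate libraries and 39.2 ± 6.07 CPM in untreated control libraries. Its difference of 0.31 ± 0.15 missed the threshold (edgeR quasi-likelihood, adjusted p = 0.101) and passed it when oxalate library 40 was left out (0.37, adjusted p = 0.0368) or libraries were scaled by their totals, and under no other alternative. Chac1 (an enzyme that breaks down glutathione, chromosome 2, 119351229 to 119354381, plus strand) was near equal, at 0.896 ± 0.253 CPM in untreated oxalate libraries and 0.803 ± 0.394 CPM in untreated control libraries (0.16 ± 0.37, 95% interval -0.62 to 0.93, edgeR quasi-likelihood adjusted p = 0.747).

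Sesn2 (sestrin 2, a leucine sensor that restrains mTORC1 and that both ATF4 and p53 induce; chromosome 4, 132492032 to 132510501, minus strand) was the one of the 9 tested genes with a negative estimate. It had 44.8, 51.2, 61.2, 51.1 and 33.5 CPM in untreated oxalate libraries 12, 3, 32, 39 and 40, against 80.0, 48.0, 44.6, 67.5 and 69.3 CPM in untreated control libraries 13, 19, 26, 35 and 9. The control libraries split into a higher set of 13, 35 and 9 and a lower pair within the oxalate range. The difference was -0.36 ± 0.16 (edgeR quasi-likelihood, adjusted p = 0.0789). Leaving out control library 19 (adjusted p = 0.0408) or 26 (adjusted p = 0.0264), or oxalate library 32 (adjusted p = 0.0182), put it past the threshold, at -0.44 to -0.5. Over all single libraries left out it ran from -0.5 to -0.25, with an adjusted p of up to 0.236 in edgeR's test. Under the remaining alternatives it ran from -0.43 to -0.06, with adjusted p of 0.0572 to 0.709 in their tests. The decrease is thus relative to these choices.

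Library totals used for scaling, without TMM factors, moved the median of all genes by 0.3 (log2). With them 7 of the 9 genes were called higher, Atf4 (0.57, adjusted p = 0.00234), Asns (0.69, adjusted p = 0.0368) and Psat1 (0.59, adjusted p = 0.00242) being added, while 7498 of all genes were called higher and 1308 lower (4067 and 3563 with TMM). Changes of that size are therefore relative to the scaling.

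**Figure D2:**
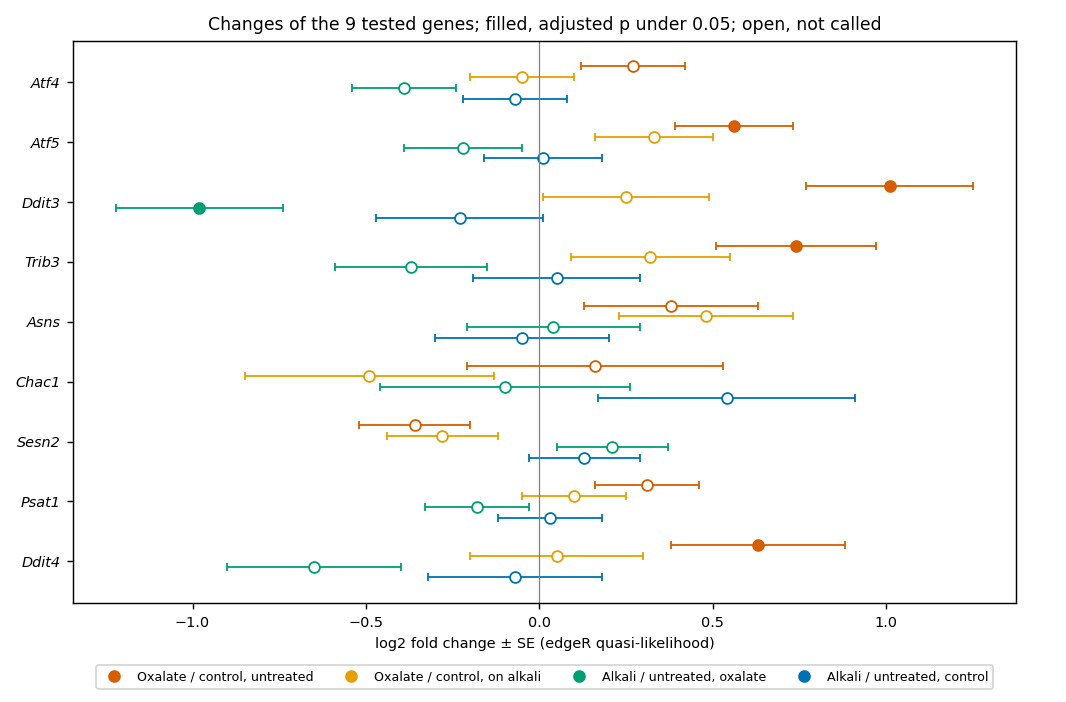
Changes of the 9 tested genes as log2 fold changes on the horizontal axis, with bars of 1 SE, for 4 comparisons marked by colour. Filled points passed an adjusted p of 0.05 in edgeR's quasi-likelihood test over all genes, and these are Ddit3 (1.01), Trib3 (0.74), Ddit4 (0.63) and Atf5 (0.56) for untreated oxalate over untreated control and Ddit3 (-0.98) for alkali over untreated in oxalate libraries.

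Within the oxalate libraries, alkali-treated were set against untreated ones to ask how the pathway differed between these groups in the disease. Ddit3 alone was called, and it was lower with alkali. This is 11.1% of the 9 tested genes, against 2.33% of all genes called lower, 1.76% called higher and 4.08% called in either direction. Of the other genes Atf4, Ddit4, Trib3, Atf5, Psat1 and Chac1 had estimates below 0, and Sesn2 and Asns above 0. The median over the 9 genes was -0.22 and that over all genes 0.01. The groups overlapped for each of the 9 genes, and of all genes 1.91% had every alkali-treated library above and 1.61% every one below the untreated ones.

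Ddit3 had 11.8, 19.6, 12.6, 17.3 and 16.2 CPM in alkali-treated oxalate libraries 2, 30, 33, 5 and 8, against 45.3, 41.4, 25.5, 23.6 and 17.6 CPM in untreated oxalate libraries 12, 3, 32, 39 and 40. The alkali-treated libraries were tight, and only library 30 was above the lowest untreated one. The change was -0.98 ± 0.24, or 0.506-fold (edgeR quasi-likelihood test, adjusted p = 0.0256). The call was lost without oxalate library 12 (-0.8, adjusted p = 0.0882) or 3 (-0.85, adjusted p = 0.0669), without alkali-treated library 2 (-0.9, adjusted p = 0.0513), and when only these 10 libraries were fitted (-0.97, adjusted p = 0.139).

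Atf4 had 90.8, 131, 81.9, 99.5 and 120 CPM in alkali-treated oxalate libraries 2, 30, 33, 5 and 8, against 169, 157, 135, 120 and 106 CPM in untreated oxalate libraries 12, 3, 32, 39 and 40. The ranges overlapped between 106 and 131 CPM. The difference was -0.39 ± 0.15, with an unadjusted p of 0.0161 and an adjusted p of 0.137 (edgeR quasi-likelihood).

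Ddit4 gave a like picture, with 21.4, 17.1, 26.5, 24.1 and 20.8 CPM in alkali-treated oxalate libraries 2, 30, 33, 5 and 8 and 52.3, 34.2, 23.6, 24.9 and 36.8 CPM in untreated oxalate libraries 12, 3, 32, 39 and 40. Its difference of -0.65 ± 0.25 did not pass (edgeR quasi-likelihood, adjusted p = 0.143). The remaining genes lay closer to 0. Trib3 averaged 1.11 ± 0.155 CPM in alkali-treated oxalate libraries and 1.44 ± 0.411 CPM in untreated oxalate libraries (-0.37 ± 0.22, edgeR adjusted p = 0.364), and Atf5 averaged 15.7 ± 3.02 CPM with alkali and 18.4 ± 3.93 CPM without (-0.22 ± 0.17, edgeR adjusted p = 0.476). Psat1 was at 42.9 ± 4.89 CPM with alkali and 48.5 ± 13.1 CPM without, Sesn2 at 55.8 ± 8.44 and 48.4 ± 10.2, Asns at 7.24 ± 1.61 and 7.02 ± 1.9, and Chac1 at 0.832 ± 0.185 and 0.896 ± 0.253 (n = 5 each), with no adjusted p under 0.508 among these in edgeR's test. Asns did not differ detectably with alkali (95% interval -0.47 to 0.56).

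Between alkali-treated and untreated control libraries none of the 9 genes passed the threshold in edgeR's test, with 0.0% of all genes called. At an unadjusted p under 0.05 there were 389 of all genes, DESeq2 called 3 and limma-voom 0. The groups overlapped for all 9 genes, and 0.557% of all genes lay wholly above and 0.467% wholly below. Ddit3 averaged 13 ± 2.99 CPM in alkali-treated control libraries and 15.3 ± 4.47 CPM in untreated control libraries. Chac1 had the largest estimate, 0.54 ± 0.37, at 1.17 ± 0.545 CPM with alkali and 0.803 ± 0.394 CPM without, and spread widely in both groups.

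Whether alkali-treated and untreated libraries differed by another amount in oxalate than in control libraries was tested by the interaction. It called 0 of the 9 genes and 0.0% of all genes in edgeR's test. At an unadjusted p under 0.05 there were 1429 genes, and DESeq2 called 26 and limma-voom 0 of all genes. For Ddit3 the difference between the alkali comparisons was -0.75 ± 0.33 (unadjusted p = 0.0352, adjusted p = 0.509, edgeR quasi-likelihood). An alkali effect limited to oxalate libraries was thus not shown for Ddit3.

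The comparison of alkali-treated oxalate with alkali-treated control libraries asked what differed once both groups had alkali. Of the 9 genes 0 were called, and 0 reached an unadjusted p under 0.05 in edgeR's test, beside 23.4% of all genes called higher, 17.1% called lower and 40.4% in either direction. The groups overlapped for each of the 9, and of all genes 10.8% lay wholly above and 5.51% wholly below. DESeq2 and limma-voom also called 0 of the 9. Asns had the largest positive estimate, at 7.24 ± 1.61 CPM in alkali-treated oxalate libraries and 5.19 ± 1.2 CPM in alkali-treated control libraries (0.48 ± 0.25, edgeR adjusted p = 0.127). Atf5 was at 15.7 ± 3.02 CPM in alkali-treated oxalate libraries and 12.5 ± 0.782 CPM in alkali-treated control libraries (0.33 ± 0.17, edgeR adjusted p = 0.119), a difference that passed at 0.43 (adjusted p = 0.0318) once alkali-treated oxalate library 2 was left out. Ddit3 was at 15.5 ± 3.24 CPM in alkali-treated oxalate libraries and 13 ± 2.99 CPM in alkali-treated control libraries (0.25 ± 0.24, edgeR adjusted p = 0.404). Each oxalate comparison shares a group of libraries with each alkali comparison, so their values stand side by side and are not independent.

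Fgf21 (chromosome 7, 45613886 to 45615490, minus strand) encodes a hormone made mainly by the liver, where ATF4 and PPAR-alpha induce it. It had 3, 3, 0, 1 and 2 counts in alkali-treated oxalate libraries 2, 30, 33, 5 and 8, and 3, 1, 0, 0 and 0 counts in untreated oxalate libraries 12, 3, 32, 39 and 40. Alkali-treated control libraries 1, 27, 37, 4 and 7 had 2, 3, 7, 0 and 1 counts, and untreated control libraries 13, 19, 26, 35 and 9 had 2, 0, 2, 5 and 1. The limit that a count of 0 allows is 3 counts, or 0.0759 to 0.117 CPM per library by library totals, without TMM factors. It covers counting error only. Of the 20 libraries, with 36 counts in all, 2 exceeded it, alkali-treated control library 37 with 7 counts and untreated control library 35 with 5. No difference in Fgf21 was detectable at this depth.

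Some libraries were high or low within their group in many of the genes at once. In untreated oxalate library 12 the highest value of its group was reached by 7 of the 9 genes, against 17.0% of all tested genes, and in alkali-treated control library 27 likewise by 7 of 9, against 20.4%. Alkali-treated oxalate library 2 had the lowest value of its group in 6 of 9, against 32.3% of all tested genes. After the group means were taken out, Atf4 and Ddit3 followed each other most closely over the 20 libraries (Pearson r 0.81, Spearman rho 0.71), followed by Atf5 and Asns (r 0.72, rho 0.74). Sesn2 stood apart, with r of at most 0.08 to any other of the genes and -0.57 to Trib3. Of all tested genes the 3 most like Atf4 by this measure were Zfp622 (r 0.92, rho 0.93), Bag3 (r 0.90, rho 0.89) and Sertad3 (r 0.89, rho 0.87), and without the 2 libraries farthest from the median of Atf4 their r was 0.91, 0.87 and 0.86. These correlations describe points that share library and depth.

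**Figure D3:**
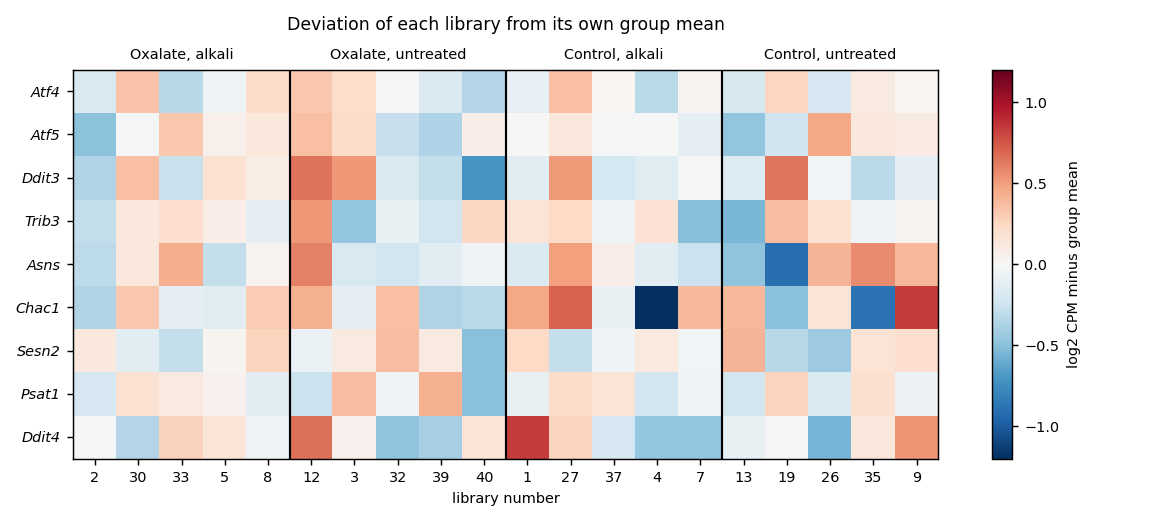
Deviation of each library (columns, grouped as marked above) from the mean log2 CPM of its own group, for the 9 tested genes (rows). Red is above and blue below the group mean. Column 12 of the untreated oxalate libraries and column 27 of the alkali-treated control libraries are red in most rows, where 7 of 9 genes reach their group's highest value, and the Sesn2 row does not follow the others.

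A set of 4 libraries was high in early response genes, which are induced rapidly by many stimuli and also by tissue handling. The sum of 7 such genes (Fos, Fosb, Egr1, Junb, Ier2, Dusp1 and Zfp36, chosen after values were seen) was 108 to 170 CPM in alkali-treated oxalate libraries. It was 835 and 640 CPM in untreated oxalate libraries 12 and 3 and 109 to 205 CPM in the other untreated oxalate libraries. It was 418 CPM in alkali-treated control library 27 and 297 CPM in untreated control library 19. Without these 4 libraries Ddit3 had 17.6 to 25.5 CPM in the 3 remaining untreated oxalate libraries and 11.8 to 14.5 CPM in the 4 remaining untreated controls. These no longer overlapped, but the control left out, library 19, had held the highest Ddit3 of its group (23.1 CPM). The share of all genes that separate in these fewer libraries was not counted. Ddit3 was still called higher, at 0.74 (edgeR quasi-likelihood, adjusted p = 0.00361). Trib3 also remained called, while Atf5 (0.29, adjusted p = 0.252) and Ddit4 (0.34, adjusted p = 0.397) did not. Of all genes 20.1% were called higher in this setting. For alkali in oxalate libraries Ddit3 was then at -0.52 (edgeR quasi-likelihood, adjusted p = 0.174), and 40 of all genes were called in place of 630. This setting was chosen after seeing the data and leaves 3 untreated oxalate libraries, and the part of the early response in these results was not tested otherwise.

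**Figure D4:**
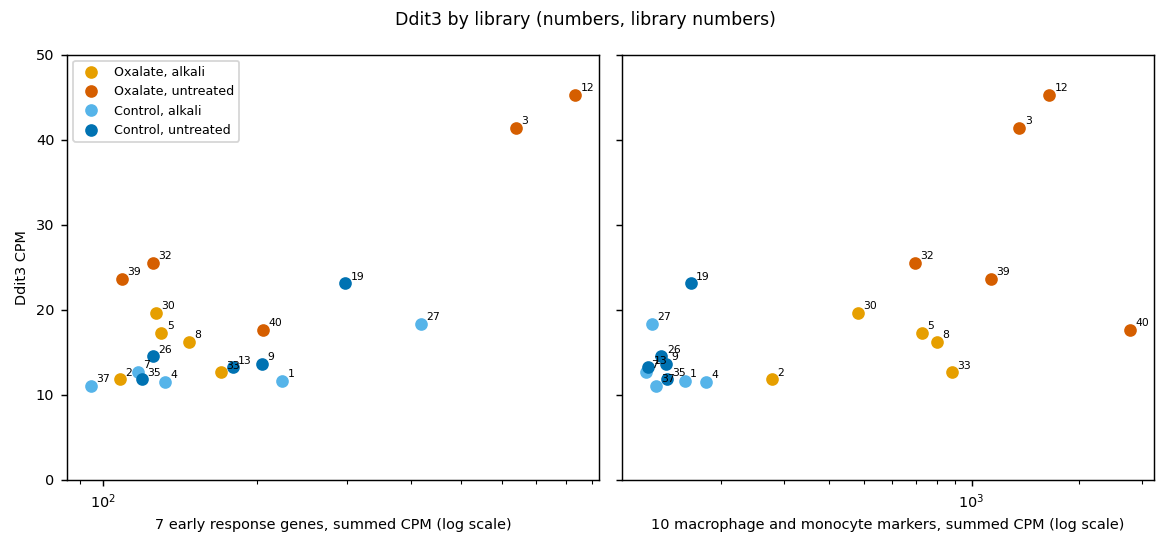
Ddit3 in CPM (vertical axis, from 0) against the summed CPM of 7 early response genes (left) and of 10 macrophage and monocyte markers (right), both on log axes, 1 numbered point per library and 1 colour per group. Untreated oxalate libraries 12 (835 CPM) and 3 (640 CPM) lie far to the right in the left panel with the highest Ddit3, and library 40 lies farthest right in the right panel (2770 CPM) with the lowest Ddit3 of its group (17.6 CPM).

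Markers of cell types moved with the groups too, and in such bulk samples fewer cells of a type and less RNA per cell cannot be told apart. Markers of the kidney were present in all libraries although the labels name no tissue. The summed CPM of 10 proximal tubule markers, such as Lrp2, was 21400 to 46200 in alkali-treated oxalate, 16600 to 43400 in untreated oxalate, 48600 to 56100 in alkali-treated control and 52600 to 60800 in untreated control libraries, and all 10 were lower in untreated oxalate than in untreated control libraries in edgeR's test. The sum of 10 macrophage and monocyte markers, such as Cd68, was 277 to 881 CPM in alkali-treated oxalate, 696 to 2770 in untreated oxalate, 123 to 181 in alkali-treated control and 125 to 164 in untreated control libraries. All 10 were higher in untreated oxalate libraries, and 3 of 10 were lower with alkali in oxalate libraries. The sum of 10 injured tubule markers was 1710 to 4700 CPM in alkali-treated oxalate, 3290 to 5470 in untreated oxalate, 986 to 1210 in alkali-treated control and 829 to 1050 in untreated control libraries, with all 10 higher in untreated oxalate libraries and 6 lower with alkali. Adipose markers exceeded 100 CPM in 4 libraries, among them control library 26 (459 CPM) and alkali-treated oxalate library 33 (368 CPM), and without these 4 the alkali call of Ddit3 (-0.92, adjusted p = 0.0629) and the oxalate call of Ddit4 (0.65, adjusted p = 0.0572) were lost in edgeR's test. None of the markers of these lists was at 0 in all libraries of a group. The part of cell composition in the changes of the stress genes was not tested.

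The rest of the pathway was read from lists of genes, upstream to downstream, again in edgeR's test over all genes with TMM scaling. Of all genes 26.4% were called higher and 23.1% lower for untreated oxalate over untreated control (48.6% and 8.48% with total-count scaling). For alkali in oxalate libraries the shares were 1.76% and 2.33%, and for oxalate on alkali 23.4% and 17.1%. With 4.08% of all genes called for alkali in oxalate libraries, a count of 0 does not set lists this short apart from all genes. Of 10 genes for eIF2 kinases and phosphatase subunits, 2 were higher and 3 lower in untreated oxalate than in untreated control libraries, against 6 higher and 0 lower with total-count scaling. The heme-regulated kinase gene Eif2ak1 was lower, at 74.1 ± 7.31 CPM in untreated oxalate and 94.4 ± 7.98 CPM in untreated control libraries (-0.35 ± 0.09, edgeR adjusted p = 0.00224), although with total-count scaling it was at -0.05. Eif2ak2, the kinase that senses double-stranded RNA, was higher (0.38 ± 0.13, edgeR adjusted p = 0.016), a call lost without oxalate library 40 (0.28, adjusted p = 0.0808). With alkali in oxalate libraries Eif2ak1 was higher, at 93.3 ± 10.3 CPM against 74.1 ± 7.31 CPM in untreated oxalate libraries (0.33 ± 0.09, edgeR adjusted p = 0.0317). That call was lost under 9 of 29 alternatives. Leaving out any 1 of 6 libraries ended it (adjusted p 0.0506 to 0.0907), as did fitting only these 10 libraries (adjusted p = 0.204). It was also lost without the 4 libraries high in early response genes (adjusted p = 0.2) and without the filter on low counts (adjusted p = 0.0511). Of 8 genes for the subunits of eIF2 and of its exchange factor eIF2B, 0 were higher and 4 lower in untreated oxalate libraries, with a median of -0.19. With total-count scaling 2 were higher and 0 lower, and the median was 0.11. None of these 8 was called with alkali.

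Of 13 genes for partners and regulators of ATF4, 7 were higher and 3 lower in untreated oxalate than in untreated control libraries, with a median of 0.65 (9 and 1 with total-count scaling). With alkali in oxalate libraries 1 of the 13 was higher (Maf) and 2 lower (Cebpg and Atf3), beside 1.76% and 2.33% of all genes. The cofactor gene Nupr1, known as a stress-induced companion of ATF4 and CHOP, was at 39.1 ± 9.91 CPM in untreated oxalate and 11.9 ± 6.49 CPM in untreated control libraries (1.71 ± 0.31, edgeR adjusted p = 0.000189). Nupr1 did not pass with alkali in oxalate libraries (-0.25 ± 0.30, edgeR adjusted p = 0.687). In the comparison on alkali 1 of the 13 genes was higher and 1 lower, beside 23.4% and 17.1% of all genes. The higher one was Nupr1, at 32.9 ± 12.7 CPM in alkali-treated oxalate and 9.17 ± 1.01 CPM in alkali-treated control libraries (1.85 ± 0.31, edgeR adjusted p = 0.000327).

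Cebpg encodes a C/EBP protein that pairs with ATF4 at the motif shown above. It had 47.4, 43.4, 47.8, 50.3 and 46.7 CPM in alkali-treated oxalate libraries 2, 30, 33, 5 and 8, against 61.8, 61.2, 54.7, 58.4 and 68.3 CPM in untreated oxalate libraries 12, 3, 32, 39 and 40. Every alkali-treated library lay below every untreated one. The change with alkali was -0.37 ± 0.07 (edgeR quasi-likelihood, adjusted p = 0.00577), and against the untreated controls, at 45.7 to 53.4 CPM, untreated oxalate libraries were higher by 0.33 ± 0.07 (adjusted p = 0.000584). The alkali call was lost when only the 10 oxalate libraries were fitted (adjusted p = 0.107) and without the 4 libraries high in early response genes (adjusted p = 0.0816), at -0.36 in both.

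Atf3, an early bZIP factor that ATF4 induces, had 2.34, 4.62, 7.6, 7.74 and 8.24 CPM in alkali-treated oxalate libraries 2, 30, 33, 5 and 8, against 86.3, 78.7, 12.8, 16.1 and 52.3 CPM in untreated oxalate libraries 12, 3, 32, 39 and 40. The groups did not overlap, and the spread among untreated libraries was large. The change was -3.01 ± 0.83 (edgeR quasi-likelihood, adjusted p = 0.0485), and leaving out any 1 of 13 libraries ended the call (adjusted p 0.0511 to 0.131). Maf went the other way from Cebpg and Atf3. It was lower in untreated oxalate than in untreated control libraries (-0.7, edgeR quasi-likelihood adjusted p = 0.000284). With alkali in oxalate libraries it was higher (0.56, edgeR quasi-likelihood adjusted p = 0.0237), a call lost under 5 of 29 alternatives.

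Amino acid supply was read from lists of transporters and of enzymes. Of 12 ATF4-regulated amino acid transporters, 7 were higher and 1 lower in untreated oxalate than in untreated control libraries, with a median of 0.7 (9 and 1 with total-count scaling), and on alkali 6 were higher and 1 lower. Slc7a11, the cystine importer, was at 3.35 ± 2.9 CPM in untreated oxalate and 0.258 ± 0.0633 CPM in untreated control libraries (3.69 ± 0.50, edgeR adjusted p = 1.05e-05). Oxalate library 40 had 8.41 CPM and the others of its group 1.4 to 3.01. The controls, at 0.188 to 0.339 CPM, lay not far above the limit for a count of 0 (0.0759 to 0.117 CPM by library totals, without TMM factors). The call held under every alternative, at 2.95 to 4.07, but its size is uncertain. Slc7a5, a carrier of large neutral amino acids, was at 6.29 ± 1.62 CPM in untreated oxalate and 2.34 ± 0.279 CPM in untreated control libraries (1.43 ± 0.23, edgeR adjusted p = 7.05e-05). With alkali in oxalate libraries 0 of the 12 were called, beside 4.08% of all genes. Slc7a11 stood there at 1.25 ± 0.668 CPM against 3.35 ± 2.9 CPM untreated (-1.43 ± 0.42, edgeR adjusted p = 0.0594).

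Of 12 serine, glycine and one-carbon enzymes, 3 were higher and 4 lower in untreated oxalate libraries (6 and 3 with total-count scaling). The mitochondrial folate enzymes Mthfd1l (1.24 ± 0.24, edgeR adjusted p = 0.000385) and Mthfd2 (0.92 ± 0.20, adjusted p = 0.000935) were higher, and the cytosolic Mthfd1 (-0.73) and Aldh1l1 (-0.79) lower. Of 15 enzymes of proline, asparagine, transsulfuration and alanine metabolism, 5 were higher and 10 lower (5 and 7 with total-count scaling). Aldh18a1, which starts proline synthesis from glutamate, was at 8.68 ± 2.6 CPM in untreated oxalate and 2.46 ± 0.53 CPM in untreated control libraries (1.82 ± 0.21, edgeR adjusted p = 2.33e-06), while Cbs and Cth, which make cysteine from homocysteine, were lower (-1.12 ± 0.19, adjusted p = 9.92e-05, and -0.93 ± 0.19, adjusted p = 0.000483). With alkali in oxalate libraries 0 of these 12 and 0 of these 15 were called, beside 4.08% of all genes.

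Of 20 cytosolic aminoacyl-tRNA synthetases, many of which ATF4 induces in cultured cells, 1 was higher and 7 lower in untreated oxalate libraries, with a median of -0.16. This balance turned with total-count scaling, to 9 higher and 1 lower and a median of 0.14. Dars was at 60.9 ± 4.23 CPM in untreated oxalate and 87.1 ± 9.01 CPM in untreated control libraries (-0.52 ± 0.10, edgeR adjusted p = 0.000274). None of the 20 was called with alkali in oxalate libraries, beside 4.08% of all genes.

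Of 20 other stress-induced targets of ATF4 and CHOP, 12 were higher and 2 lower in untreated oxalate libraries, with a median of 0.77 (15 and 1 with total-count scaling). Stc2, a secreted glycoprotein, was at 11.7 ± 2.04 CPM in untreated oxalate and 2.78 ± 0.385 CPM in untreated control libraries (2.08 ± 0.19, edgeR adjusted p = 4.5e-07). On alkali it was at 9.38 ± 2.94 CPM in oxalate and 2.83 ± 0.367 CPM in control libraries (1.73 ± 0.19, adjusted p = 1.47e-05). With alkali in oxalate libraries 2 of the 20 were lower and 1 higher. Pmaip1, which encodes the pro-apoptotic NOXA, was at 19 ± 1.8 CPM in alkali-treated and 36.5 ± 6.32 CPM in untreated oxalate libraries (-0.94 ± 0.17, edgeR adjusted p = 0.00659), with no overlap, and the call held under every alternative. The other lower gene was Tes (-0.53 ± 0.09, adjusted p = 0.00514), which encodes a focal adhesion protein, and its call was lost when only these 10 libraries were fitted (adjusted p = 0.0693) and without the 4 libraries high in early response genes (adjusted p = 0.0979). Adm2, a peptide hormone gene, was higher, at 3.14 ± 1.13 CPM in alkali-treated and 1.34 ± 0.684 CPM in untreated oxalate libraries (1.24 ± 0.30, edgeR adjusted p = 0.0267). Its call was lost without untreated library 12 or alkali-treated library 30 or 8 (adjusted p 0.0657 to 0.0849). The call was also lost when only these 10 libraries were fitted (adjusted p = 0.198) and without the 4 libraries high in early response genes (adjusted p = 0.236).

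IRE1 and ATF6 are the arms of the unfolded protein response that run beside ATF4. Of 24 IRE1, ATF6 and ER chaperone genes, 1 was higher and 4 lower in untreated oxalate libraries, with a median of -0.05. With total-count scaling 10 were higher and 0 lower, and the median was 0.24. The gene called higher with TMM scaling, Sdf2l1, an ER lumen protein of the chaperone machinery, had 15.6, 15.0, 25.0, 19 and 12.8 CPM in untreated oxalate libraries 12, 3, 32, 39 and 40, against 10.3, 12.5, 7.49, 7.83 and 6.14 CPM in untreated control libraries 13, 19, 26, 35 and 9. All oxalate libraries lay above all controls (0.98 ± 0.18, edgeR adjusted p = 0.000208). It was also the one gene of the list called with alkali in oxalate libraries, at 9.52 ± 0.732 CPM against 17.5 ± 4.76 CPM untreated (-0.88 ± 0.18, edgeR adjusted p = 0.011), a call lost when only these 10 libraries were fitted (adjusted p = 0.0624). Hspa5, the main ER chaperone BiP, named here after its values were seen, was at 687 ± 171 CPM in untreated oxalate and 659 ± 157 CPM in untreated control libraries (0.06 ± 0.19, edgeR adjusted p = 0.811).

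Lists that share regulators with the 10 genes were read the same way. Some genes stand in more than 1 list, so the counts of the lists are not independent. Cdkn1a, Bbc3 and Gdf15, all called higher, are in both the p53 list and that of ATF4 and CHOP targets. Nupr1 is in the latter and in the list of ATF4 partners. Of 14 mitochondrial stress genes 1 was higher and 9 lower in untreated oxalate libraries (1 and 7 with total-count scaling), among them the protease subunit Clpx (-0.85 ± 0.17, edgeR adjusted p = 0.000501). Of 15 genes of glutathione metabolism and relatives of the sestrins and of Chac1, Trib3 and Ddit4, 3 were higher and 9 lower (4 and 5 with total-count scaling), with Chac2 at -0.84 ± 0.19 (adjusted p = 0.00126) and Gclm at -0.77 ± 0.16 (adjusted p = 0.000585). Of 12 p53 targets, a list that includes Sesn2, 6 were higher and 0 lower (10 and 0 with total-count scaling). They included Cdkn1a (1.66 ± 0.29, edgeR adjusted p = 0.000119), which encodes the cell cycle inhibitor p21. Of 15 hypoxia genes 0 were higher and 6 lower, although their median was 0.06, and with total-count scaling 4 were higher and 2 lower. Car9, a hypoxia-induced carbonic anhydrase, was at -1.30 ± 0.22 (adjusted p = 0.000102). Of 12 glucocorticoid response genes 5 were higher and 2 lower (5 and 0 with total-count scaling). A list of FGF21 receptor and PPAR-alpha genes also held Kl, which encodes klotho and belongs to neither class. Of its 16 tested genes 3 were higher and 6 lower, Kl among the lower, a balance that turned to 7 higher and 4 lower with total-count scaling. With alkali in oxalate libraries 0 of the mitochondrial stress, glutathione, p53 and hypoxia genes were called, beside 4.08% of all genes. In the same comparison 2 glucocorticoid response genes were lower. Tsc22d3 (-0.91, adjusted p = 0.00617) lost its call with only the 10 oxalate libraries fitted (adjusted p = 0.0617) and without the early-response libraries (adjusted p = 0.103). Sgk1 (-0.88, adjusted p = 0.0208) lost its call under 6 of 29 alternatives, among them leaving out untreated library 3 (adjusted p = 0.0512) or 40 (adjusted p = 0.0513) or alkali-treated library 30 (adjusted p = 0.0641). The highest adjusted p of these 6 was 0.105, without the early-response libraries. Of the list of FGF21 receptor and PPAR-alpha genes 3 were lower and 1, Kl, higher. Cyp4a14, a fatty acid hydroxylase gene, was lower, at 12.6 ± 6.01 CPM in alkali-treated and 315 ± 267 CPM in untreated oxalate libraries (-4.64 ± 0.91, edgeR adjusted p = 0.0107), and its call held under all 29 alternatives. The calls of Plin2 (-0.41), Cyp4a10 (-1.28) and Kl (0.59) were lost under 18, 7 and 3 of them.

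**Figure D5:**
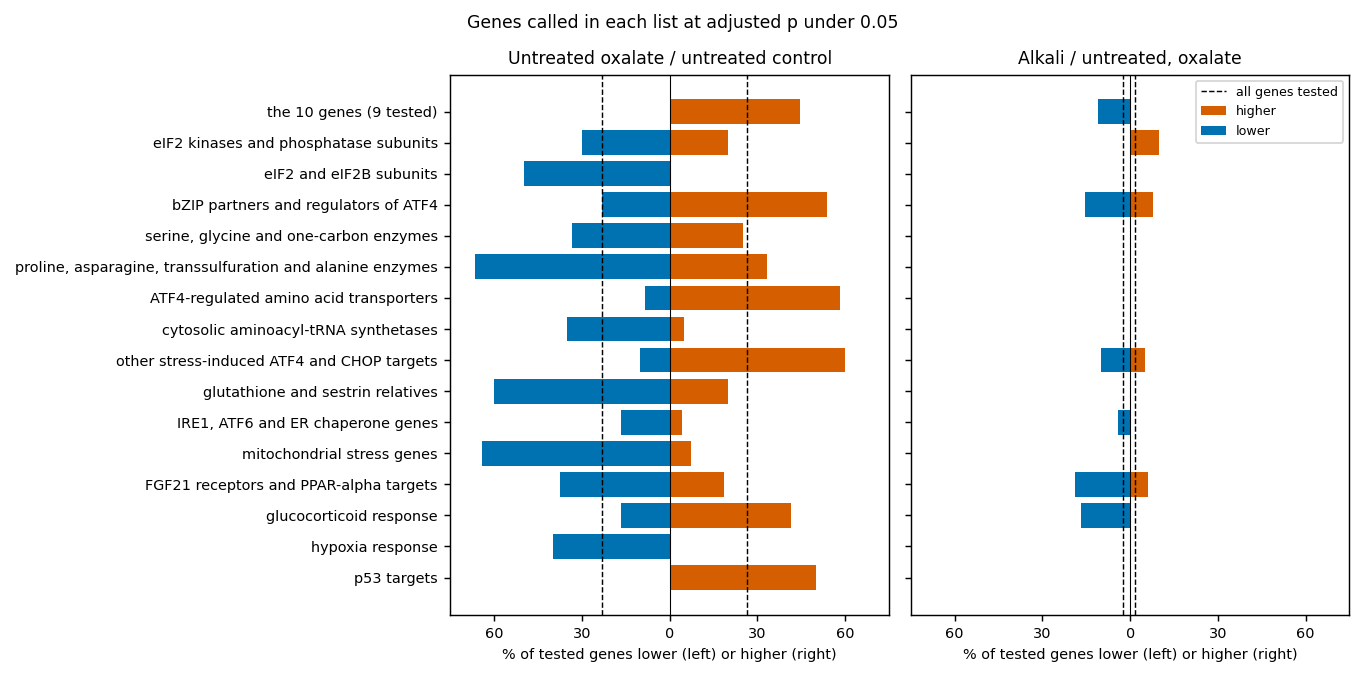
Share of the tested genes of each list called higher (to the right, orange) or lower (to the left, blue) at an adjusted p under 0.05 in edgeR's test with TMM scaling, for untreated oxalate over untreated control (left panel) and alkali over untreated in oxalate libraries (right panel). Dashed lines give the shares over all genes, 26.4% higher and 23.1% lower on the left and 1.76% and 2.33% on the right. The stress-induced targets (12 of 20 higher) and transporters (7 of 12) reach far to the right. Lists reaching far to the left are the proline, asparagine, transsulfuration and alanine enzymes (10 of 15 lower), the mitochondrial stress genes (9 of 14) and the glutathione and sestrin relatives (9 of 15).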

How the data were processed

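The 20 libraries were stranded TruSeq poly(A) preparations, per the labels' protocols. Each deposited file holds unnormalized counts per gene, made by the authors with bcl2fastq 2.19, Trimmomatic, STAR 2.7.1, featureCounts and edgeR, per the submitters' processing notes. The notes name the human build GRCh38.p5 although every identifier is a mouse gene, which leaves the build of the counts unresolved, and the strand setting is not given in the sources used here. GENCODE M21 (GRCm38) gave symbols and coordinates to 25664 of 25700 identifiers. The 36 others held at most 0.0226% of a library. Totals per library ran from 25547840 to 39550689 counts.

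R 4.3.3 with edgeR 4.0.16 was used, and limma 3.58.1 and DESeq2 1.42.0 for alternatives. filterByExpr (minimum count 10) kept 15430 genes and removed 10270. After TMM scaling a robust quasi-likelihood model of 4 group means used all 20 libraries (common biological coefficient of variation 0.2), with Benjamini-Hochberg adjustment over all genes. Groups came from the titles. All 40 pairs of libraries within groups differed beyond counting noise (chi-square per degree of freedom 9.03 to 230.0). The code was tested on simulated counts. The genes and lists were chosen with earlier results of these data known. Named are all 10 genes, up to 4 called genes of each list with the smallest p, and the 3 genes most like Atf4. Names outside this rule are marked as such. Promoters are RefSeq's (GRCm38.p6), and all 10 genes matched.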

Additional observations from a re-analysis of the deposited data

Results flagged for a closer look

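In 3 of the 36 sets of 5 values (9 genes in 4 groups) 1 library stood far from the others of its group, by Dixon's gap ratio at the 95% level. Chance flags about 1 in 20 such sets. Ddit3 in alkali-treated control library 27 had 18.3 CPM, where the next library had 12.7 CPM. Ddit3 in untreated control library 19 had 23.1 CPM, where the next had 14.5 CPM. Asns in untreated oxalate library 12 had 10.4 CPM, where the next had 6.61 CPM. These 3 libraries also had summed early response genes of 418, 297 and 835 CPM, and the part of those genes in the flagged values was not tested.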

How the results depend on the processing

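No paired analysis was possible because no library number is shared between groups. Each result was recomputed with DESeq2, limma-voom, median-ratio or total-count scaling, no filter on low counts, a non-robust fit, only the groups compared, and each library left out in turn, and, chosen after seeing the data, without 4 libraries rich in adipose markers and without 4 libraries high in early response genes. Of 9 genes called for untreated oxalate over untreated control (4), 7 were called with total-count scaling, 2 without the early-response libraries and 3 to 5 with 1 library left out. For alkali in oxalate libraries (1) the count was 0 with only the groups compared, 0 without the adipose-rich and 0 without the early-response libraries, and 0 to 1 with 1 library left out. For oxalate on alkali (0) it was 2 with total-count scaling (Atf5 and Asns), 1 without the early-response libraries (Asns) and 0 to 1 with 1 left out. For alkali in control libraries and the interaction it was 0 to 0. Of all genes, alkali in oxalate libraries called 630, 1203 with DESeq2, 29 with only the groups compared, 40 without the early-response libraries and 185 to 1160 with 1 library left out. Untreated oxalate called 6865 to 8382 with 1 left out. Oxalate on alkali called 6237, 4153 without the early-response libraries and 4428 to 7927 with 1 left out. Alkali in control libraries called 0, 3 with DESeq2 and 0 to 1 with 1 left out, and the interaction 0, 26 with DESeq2, 1 without the early-response libraries and 0 to 3 with 1 left out. Genes of the lists called for alkali in oxalate libraries numbered 14, and 23 with DESeq2. For the interaction they numbered 0, and 1 with DESeq2.

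Of 1296 recomputed values of single genes 1217 kept direction and side of the threshold, 17 lost and 11 gained a call, and 51 changed sign, none of these near a call (adjusted p at least 0.379). Most of the values belong to results that were not called at the outset, so the 1217 says little about the calls. The 17 losses fell on Ddit4 and Atf5 for untreated oxalate and on Ddit3 for alkali in oxalate libraries. The values with changed sign are log2 fold changes. With total-count scaling Asns was at -0.00687 for alkali in oxalate libraries, Atf4 at 0.15 for oxalate on alkali and Sesn2 at -0.00937 for the interaction. For alkali in control libraries Atf5 was at -0.002 with DESeq2 and -0.00203 with median-ratio scaling, and Asns at 0.0343 with limma-voom. Without the adipose-rich libraries Asns was at -0.0779 for alkali in oxalate, 0.23 for alkali in control libraries and -0.31 for the interaction. Psat1 was then at -0.00163 and Ddit4 at 0.0705 for alkali in control libraries, and Ddit4 at -0.14 for oxalate on alkali. Without the early-response libraries Chac1 was at -0.0913 for untreated oxalate and 0.0137 for alkali in oxalate, Atf5 at -0.0895 for alkali in control and 0.0699 for the interaction, and Atf4 at 0.0452 for oxalate on alkali.

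With 1 library left out the ranges that crossed 0 were as follows. For untreated oxalate Chac1 ran from -0.0236 to 0.43. For alkali in oxalate libraries Asns ran from -0.0794 to 0.23 and Chac1 from -0.19 to 0.0258. For alkali in control libraries Atf4 ran from -0.17 to 0.00523, Atf5 from -0.0948 to 0.14, Trib3 from -0.0714 to 0.16, Asns from -0.23 to 0.0921, Psat1 from -0.0298 to 0.1 and Ddit4 from -0.34 to 0.0852. For oxalate on alkali Atf4 ran from -0.15 to 0.0459 and Ddit4 from -0.061 to 0.32. For the interaction Asns ran from -0.0487 to 0.28 and Sesn2 from -0.0329 to 0.19. The cause of these shifts was not tested, and the depth of Trib3, Chac1 and Fgf21 limits their precision.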
